A study of Mus musculus with 6 samples.

Results

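The small leucine-rich proteoglycans described here are 10 mouse genes, Dcn, Bgn, Aspn, Lum, Fmod, Kera, Prelp, Omd, Ogn and Podn, taken as a named list out of 35856 genes with a sequence in the authors' target set. For each gene the estimated counts of all its transcripts were summed in the 6 libraries of the series, and the 3 libraries labelled Mdm2 deleted were set against the 3 labelled vehicle. The study was made to see what deletion of Mdm2, the ubiquitin ligase that restrains p53, does to gene expression in cells that lack p53. All 6 libraries are labelled Mdm2 fl/fl and p53-/-, and they fall into 3 pairs named for fibroblasts, T cell lymphoma and sarcoma, with 1 library of each group in each pair. In the libraries labelled Mdm2 deleted the cells had been given 4-hydroxytamoxifen (4-OHT), which activates the Cre recombinase CreERT2, for 48 h (fibroblasts, sarcoma) or 6 h (lymphoma). In the libraries labelled vehicle they had been given ethanol for the same times. The cells had been infected with a retrovirus for CreERT2 and GFP or for GFP alone, and the labels do not say which of these the cells of each library carried. Since 4-OHT was never given to cells labelled as carrying GFP alone, effects of the drug and of the labelled deletion cannot be told apart. Fibroblasts came from ear punches of adult mice and the tumours were kept in short-term culture; how many mice gave the cells, and of what age, is not stated.

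Small leucine-rich proteoglycans are secreted proteins built around leucine-rich repeats, and many carry chondroitin, dermatan or keratan sulfate chains. They bind collagen fibrils and set their diameter and spacing, and in connective tissue they are made mainly by fibroblasts and related cells. Several also bind growth factors or receptors: decorin holds TGF-beta in the matrix, and biglycan released from the matrix engages the Toll-like receptors Tlr2 and Tlr4. By sequence, Dcn, Bgn and Aspn form the first class of the family, Lum, Fmod, Kera, Prelp and Omd the second, Ogn belongs to the class with Epyc and Optc, and Podn to the class with Podnl1.

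The labels were checked before the members were compared. Mdm2 stood at 30.5, 31.1 and 31.1 CPM (counts scaled to library size by the TMM method) in the libraries labelled Mdm2 deleted, in the order fibroblasts, lymphoma and sarcoma, against 28.4, 28.0 and 28.5 CPM in those labelled vehicle. Mdm2 RNA was thus not lower in the libraries labelled deleted, and gene totals do not show whether part of the transcript was removed. Of 8 T cell markers, 0 were abundant enough to be tested, Cd3d, Cd3e and Cd247 had 0 counts in all 6 libraries, and the list summed to 0.0376 to 0.614 CPM in the libraries labelled deleted and to 0.0351 to 0.106 CPM in those labelled vehicle. The pair labelled lymphoma therefore lacked the defining genes of its label, while 8 fibroblast markers summed to 10978 CPM or more in every library of both groups. Libraries are called by their labels throughout for this reason, and every direction rests on those labels. Between libraries, chi-square per gene was 8.75 to 14.2 within the group labelled deleted and 27.6 to 79.0 within the group labelled vehicle. It was 80.8 to 136 between groups, so no libraries agreed within sampling noise. Apart from the cell type names, the labels do not state that cultures were separate, and the p-values therefore measure only the spread between these 6 libraries, which may be technical.

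Decorin, osteoglycin, osteomodulin and asporin RNA fell in the libraries labelled deleted, and biglycan, the most abundant member, did not change past the threshold. Asporin was lowered most, 14.9-fold, osteomodulin 4.72-fold, osteoglycin 4.55-fold and decorin 1.78-fold. The asporin value rests on 10, 11 and 13 counts in the libraries labelled deleted. The genes for asporin, osteomodulin and osteoglycin lie side by side within 80.1 kb of chromosome 13. Prelp and Podn also passed the threshold as lower, on few counts, and Lum, Fmod and Kera were too low to be tested. The test was edgeR's quasi-likelihood test over all 15933 genes that passed the filter on low counts, with the labelled pair as a block, and the threshold was a Benjamini-Hochberg adjusted p of 0.05. In that fit 24.6% of all tested genes passed as lower and 25.0% as higher, 49.6% in either direction; among the 10 members 6 passed as lower, 0 passed as higher, 1 did not pass and 3 were not tested. Fibroblast markers were lower too, 6 of 8 past the threshold, with a sum of 10978 to 11238 CPM in the libraries labelled deleted against 15284 to 15729 CPM in those labelled vehicle, and their part in the members' values was not tested. In bulk RNA, fewer cells of a type and less RNA per cell cannot be told apart.

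The promoters of the 3 clustered genes, whose RNA was lowered most, are shown beside that of Bgn, whose RNA did not pass the threshold. Each is 300 bases of the RefSeq table for GRCm38.p6, written 5' to 3' on the gene's strand. It runs from 250 bases before the start in that table to 50 after it. This start can differ from that of the counted transcript. The Ogn window holds only the first 19 bases of the counted transcript, which starts at chr13:49608046. The counted Omd transcript starts at chr13:49582766, beyond the end of the window shown. A promoter was held for 8 of the 10 members, and for Dcn and Lum none. Capitals mark matches, on either strand, to 4 motifs searched in all 32817 promoters of the table, namely TATAAA for the TATA box, GGAATG for TEAD factors, TGANTCA for AP-1 and TTCNNNGAA for STAT factors.
Aspn promoter, chr13:49544193-49544492, + strand: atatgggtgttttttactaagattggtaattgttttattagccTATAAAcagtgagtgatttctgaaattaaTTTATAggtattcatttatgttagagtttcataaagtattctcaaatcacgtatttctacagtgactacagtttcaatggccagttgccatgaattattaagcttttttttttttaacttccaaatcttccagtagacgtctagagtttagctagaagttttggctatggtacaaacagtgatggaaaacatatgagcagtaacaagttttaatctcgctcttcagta
Omd promoter, chr13:49582212-49582511, + strand: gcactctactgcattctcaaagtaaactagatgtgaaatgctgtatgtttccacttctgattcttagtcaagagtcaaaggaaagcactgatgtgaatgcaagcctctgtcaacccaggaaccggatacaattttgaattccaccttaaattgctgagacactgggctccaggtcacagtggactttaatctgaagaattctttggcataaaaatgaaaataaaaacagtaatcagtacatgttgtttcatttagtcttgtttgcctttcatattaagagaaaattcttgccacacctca
Ogn promoter, chr13:49607765-49608064, + strand: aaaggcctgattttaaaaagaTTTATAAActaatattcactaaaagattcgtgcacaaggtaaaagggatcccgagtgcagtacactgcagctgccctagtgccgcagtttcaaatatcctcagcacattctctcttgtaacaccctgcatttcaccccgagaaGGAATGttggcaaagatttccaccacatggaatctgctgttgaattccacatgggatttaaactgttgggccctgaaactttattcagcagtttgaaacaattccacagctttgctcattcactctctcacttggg
Bgn promoter, chrX:73483351-73483650, + strand: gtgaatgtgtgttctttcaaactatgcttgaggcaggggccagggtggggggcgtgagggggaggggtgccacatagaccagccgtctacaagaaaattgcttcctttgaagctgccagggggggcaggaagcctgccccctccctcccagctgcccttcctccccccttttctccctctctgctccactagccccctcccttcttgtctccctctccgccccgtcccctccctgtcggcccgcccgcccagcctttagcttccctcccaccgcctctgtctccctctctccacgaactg
The 3 promoters of the chromosome 13 genes had 31% G and C in Aspn, 37.7% in Omd and 42.3% in Ogn. They held 3, 1 and 4 CpG dinucleotides. The Bgn promoter had 63.7% G and C and 9 CpG. Among the promoters not shown, those of Podn had 77% and 63%, with 41 and 7 CpG. That of Prelp, which like Podn passed as lower, had 55.3%, with 7 CpG. Those of the untested Kera and Fmod had 41% and 51%, with 1 and 3 CpG. A link of base content to the fall was not tested. Over all promoters of the table the median was 52.7% G and C, with 39.7% and 69.7% at the 10th and 90th percentiles, and the median CpG number was 7. Positions are counted from the start in the RefSeq table, which for Ogn and Omd is not that of the counted transcript. TATAAA occurred at base -207 of the Aspn promoter and, on the opposite strand, at -178. In the Ogn promoter it occurred at base -227 and, on the opposite strand and overlapping it, at -229. GGAATG occurred at base -86 of the Ogn promoter. No other match was found in the 4 sequences shown. TATAAA was present in 13.6% of all promoters, GGAATG in 14.7%, TGANTCA in 7.81% and TTCNNNGAA in 8.29%. These matches describe letters in a window and are not binding sites.

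Levels of the members were compared with each other in TPM, a unit scaled to transcript length and library size. In the libraries labelled deleted the order of mean TPM was Bgn, Dcn, Ogn, Prelp, Omd, Aspn, Fmod, Podn, Lum and Kera. Prelp overlapped with Omd in its range over the 3 libraries, Aspn with Fmod, Fmod with Podn, and Lum with Kera. In the libraries labelled vehicle the order was Bgn, Dcn, Ogn, Aspn, Omd, Prelp, Podn, Lum, Fmod and Kera, with overlapping ranges for Aspn and Omd, for Podn and Lum, and for Lum and Fmod. Asporin thus stood among the lowest members in the libraries labelled deleted and level with osteomodulin in those labelled vehicle.

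**Figure D1:**
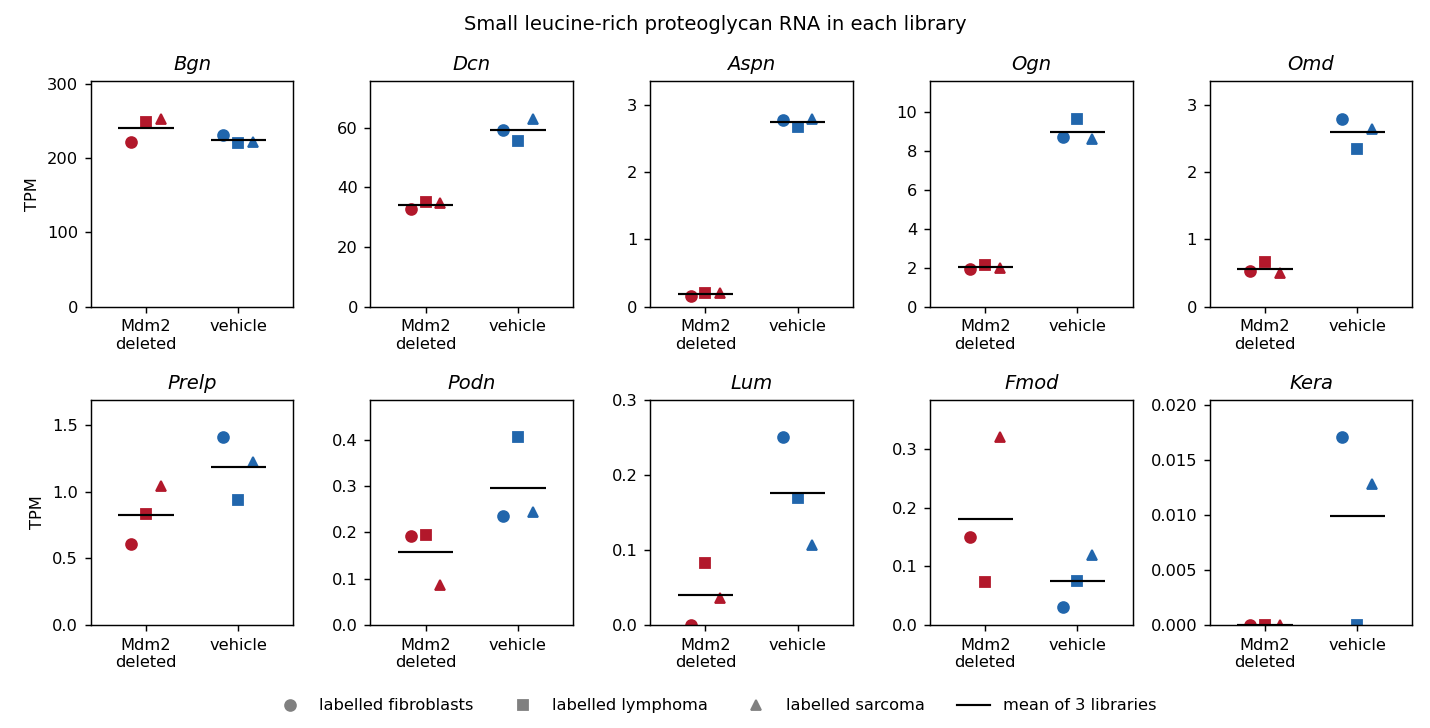
TPM (y axis, linear, a scale of its own for each gene) of the 10 members in the 3 libraries labelled Mdm2 deleted (left) and the 3 labelled vehicle (right); symbols mark the labelled cell type and bars the mean of 3 libraries. Dcn, Aspn, Ogn and Omd have separate groups with every library labelled deleted lower, as do Podn and Lum on few counts. The Bgn groups overlap, at 221 to 253 TPM labelled deleted and 219 to 231 TPM labelled vehicle.

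The sum of the 10 members was 257, 287 and 292 TPM in the libraries labelled deleted (fibroblasts, lymphoma, sarcoma), against 307, 291 and 301 TPM in those labelled vehicle. Biglycan made up 85.9%, 86.4% and 86.7% of that sum in the libraries labelled deleted and 75.4%, 75.3% and 73.8% in those labelled vehicle. Every share labelled deleted was above every share labelled vehicle. Decorin made up 11.9% to 12.7% of the sum in the libraries labelled deleted, against 19.1% to 21.0% in those labelled vehicle. The other 8 members held 1.39% to 1.46% in the libraries labelled deleted and 5.23% to 5.58% in those labelled vehicle. Biglycan RNA was 6.77, 7.09 and 7.31 times decorin RNA per length in the libraries labelled deleted, against 3.89, 3.95 and 3.52 times in those labelled vehicle, with no overlap between the groups.

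Among the first class, decorin (Dcn, ENSMUSG00000019929.16, chr10:97479609-97518143, GRCm38, + strand) organises collagen fibrils and binds TGF-beta. Dcn had 32.6, 35.0 and 34.6 TPM in the libraries labelled Mdm2 deleted for fibroblasts, lymphoma and sarcoma, against 59.3, 55.6 and 63.0 TPM in those labelled vehicle. The 3 libraries labelled deleted lay close together and all well below the 3 labelled vehicle. Dcn fell by 0.83 ± 0.04 on the log2 scale (SE, 3 pairs, edgeR adjusted p = 1.55e-08). Within the pairs, the ratio of CPM was 0.563 (fibroblasts, 95% exact counting interval 0.533 to 0.595), 0.572 (lymphoma, 0.540 to 0.606) and 0.554 (sarcoma, 0.526 to 0.584), so the 3 pairs differed by less than their counting error. The counts behind these values were 1784 to 2042 in the libraries labelled deleted and 3471 to 4979 in those labelled vehicle.

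Biglycan (Bgn, ENSMUSG00000031375.17, chrX:73483602-73495933, + strand), which shares with decorin its affinity for collagen and TGF-beta, was the most abundant member in all 6 libraries. Bgn had 221, 248 and 253 TPM in the libraries labelled deleted, against 231, 219 and 222 TPM in those labelled vehicle. The groups overlapped: the library labelled fibroblasts deleted was below its own vehicle library and the other two were above theirs. The log2 fold change over the 3 pairs was 0.07 ± 0.05 (SE, edgeR adjusted p = 0.271). In CPM the ratio was 0.978 in the pair labelled fibroblasts (0.956 to 1.00), 1.03 in the pair labelled lymphoma (1.00 to 1.05) and 1.15 in the pair labelled sarcoma (1.13 to 1.18). With 13281 to 18416 counts per library the counting error was small, and the pairs differed from each other beyond it.

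Asporin (Aspn, ENSMUSG00000021388.14, chr13:49544443-49567565, + strand) carries a run of aspartates and binds collagen and TGF-beta 1. Aspn had 10, 11 and 13 counts, or 0.150, 0.203 and 0.208 TPM, in the libraries labelled deleted. It had 175, 177 and 235 counts, or 2.78, 2.67 and 2.80 TPM, in those labelled vehicle. All 3 libraries labelled deleted were far below all 3 labelled vehicle, and the spread within each group was small. Aspn fell by 3.90 ± 0.17 on the log2 scale (SE, edgeR adjusted p = 5.89e-09). Within the pairs it was 18.1-fold lower (fibroblasts, 95% exact counting interval 9.62 to 38.4), 14.5-fold lower (lymphoma, 7.88 to 29.5) and 13.3-fold lower (sarcoma, 7.62 to 25.3). The counting intervals of the 3 pairs overlapped. On the scale of log2(TPM + 1) the change was -1.66, because the added 1 is larger than the levels labelled deleted, and the call held.

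**Figure D2:**
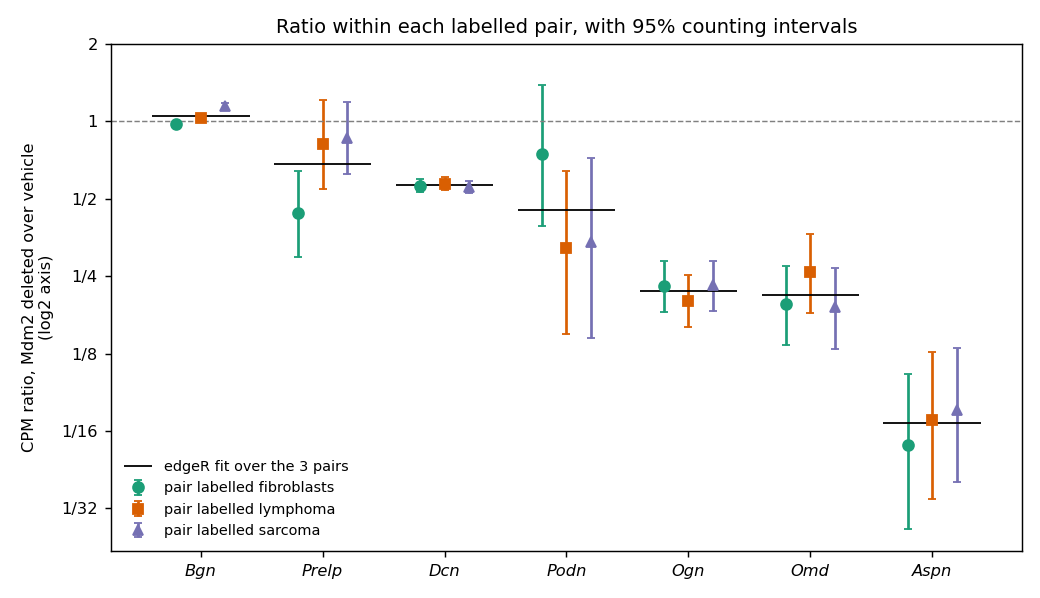
Ratio of CPM, Mdm2 deleted over vehicle (log2 axis), for the 7 tested members within each labelled pair; error bars are 95% exact counting intervals, black bars the edgeR estimate over the 3 pairs and the dashed line equality. Aspn lies between 0.0552 and 0.0753, Ogn and Omd between 0.190 and 0.258, Dcn between 0.554 and 0.572 and Bgn on both sides of 1, while the Prelp and Podn intervals are wide.

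The plot of ratios within pairs shows which members moved alike in the 3 pairs. Of the 6 members with a mean of at least 1 CPM in a pair, Ogn, Omd and Aspn were at least 2-fold lower in each pair, and 0 were 2-fold higher. Among all genes with that level, 0.767% (fibroblasts), 0.88% (lymphoma) and 0.925% (sarcoma) were at least 2-fold lower. In the edgeR fit, 3 members, again Ogn, Omd and Aspn, were past the threshold and at least 4-fold lower, as were 22 or 0.138% of all tested genes. Past the threshold and at least 2-fold lower were these and Podn, 4 in all, beside 1.41% of all tested genes; the Podn log2 fold change was -0.91 without the pair labelled lymphoma and -0.99 without the pair labelled sarcoma. Nothing is read from these counts, since Aspn and Podn entered the test only through the libraries labelled vehicle.

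In the second class, osteomodulin (Omd, ENSMUSG00000048368.9, chr13:49582462-49592822, + strand) is a keratan sulfate proteoglycan of mineralised tissue. Omd had 0.533, 0.669 and 0.498 TPM in the libraries labelled deleted, on 41, 42 and 36 counts, against 2.80, 2.36 and 2.65 TPM in those labelled vehicle, on 204, 181 and 258 counts. The groups were well apart, with every library labelled deleted lower. Omd fell by 2.24 ± 0.14 on the log2 scale (SE, edgeR adjusted p = 1.13e-07). The fall within pairs was 5.15-fold (fibroblasts), 3.87-fold (lymphoma) and 5.27-fold (sarcoma), with overlapping counting intervals. On the scale of log2(TPM + 1) the change was -1.20, and the call held.

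Prelp (ENSMUSG00000041577.5, chr1:133910304-133921414, - strand) encodes prolargin, which binds perlecan and collagen and is thought to anchor basement membranes. Prelp had 0.607, 0.835 and 1.04 TPM in the libraries labelled deleted, on 41, 46 and 66 counts, against 1.41, 0.934 and 1.22 TPM in those labelled vehicle, on 90, 63 and 104 counts. The groups overlapped, since the library labelled sarcoma deleted was above the library labelled lymphoma vehicle. Prelp fell by 0.55 ± 0.20 on the log2 scale (SE, edgeR adjusted p = 0.0365). The call rested on the pair labelled fibroblasts, with a ratio of 0.440 (95% exact counting interval 0.297 to 0.644), while the pairs labelled lymphoma and sarcoma had 0.813 (0.543 to 1.21) and 0.863 (0.624 to 1.19). Without the pair labelled fibroblasts the log2 fold change was -0.27 (adjusted p = 0.300), and the call was also lost with DESeq2 (adjusted p = 0.188), without the pair as a block (0.0540) and with limma on log2 TPM with 1 or 0.1 added (0.118 and 0.125). Of the 1107 stretches of 31 bases in its coding sequence, the length that kallisto matches, 325 or 29.4% also occur in Gm15851, an antisense gene that overlaps Prelp. Gm15851 averaged 0.0612 CPM in both groups, and its part in the Prelp values was not tested.

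Lumican (Lum, ENSMUSG00000036446.5, chr10:97565128-97572703, + strand), which spaces collagen fibrils in the cornea and skin, had 0, 4 and 2 counts in the libraries labelled deleted and 14, 10 and 8 in those labelled vehicle. No library labelled deleted reached the lowest labelled vehicle. Lum did not pass the filter and was not tested in the fit. Over the pooled counts, 6 labelled deleted and 32 labelled vehicle, the ratio of CPM was 0.214 with an exact counting interval of 0.0733 to 0.520. That interval leaves out the spread between pairs. Within pairs, only the interval for fibroblasts lay below 1 (0 to 0.291). Those for lymphoma (0.102 to 1.54) and sarcoma (0.0352 to 1.70) did not. With no filter on low counts the adjusted p of Lum was 0.00368 (edgeR). That fit gave smaller adjusted p-values than the main fit for the members past the threshold, for Ogn 6.97e-115 against 2.54e-09 (edgeR).

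Fibromodulin (Fmod, ENSMUSG00000041559.7, chr1:134037254-134048277, + strand), a collagen-binding proteoglycan abundant in tendon, had 5, 4 and 4 counts in the libraries labelled deleted and 2, 5 and 6 in those labelled vehicle. The groups overlapped, and the pooled ratio of 1.14 had an interval of 0.488 to 2.68, so a change of 2-fold in either direction could not be seen at this depth. Its TPM of 0.0730 to 0.320 labelled deleted and 0.0315 to 0.118 labelled vehicle depend on how single reads were shared between a long and a short target. Keratocan (Kera, ENSMUSG00000019932.8, chr10:97606879-97613692, + strand), a proteoglycan of the cornea, had 0 counts in the 3 libraries labelled deleted and 1, 0 and 1 in those labelled vehicle. A count of 0 allows up to 3 counts, which is 0.102 to 0.113 CPM in the libraries labelled deleted, so Kera was at or under the floor in both groups.

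Osteoglycin (Ogn, ENSMUSG00000021390.6, chr13:49608046-49624501, + strand), also called mimecan, takes part in collagen fibril formation. Ogn had 1.95, 2.12 and 1.95 TPM in the libraries labelled deleted, on 99, 88 and 93 counts, against 8.71, 9.64 and 8.57 TPM in those labelled vehicle, on 418, 489 and 550 counts. Each group was tight and the groups did not overlap. Ogn fell by 2.19 ± 0.09 on the log2 scale (SE, edgeR adjusted p = 2.54e-09). Within pairs it was 4.37-fold (fibroblasts), 4.99-fold (lymphoma) and 4.35-fold (sarcoma) lower.

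Podocan (Podn, ENSMUSG00000028600.15, chr4:108014791-108096445, - strand), a collagen-binding member first described in kidney podocytes, had 20, 11 and 9 counts in the libraries labelled deleted and 26, 38 and 36 in those labelled vehicle. In TPM it had 0.191, 0.195 and 0.0863 in the libraries labelled deleted and 0.236, 0.405 and 0.245 in those labelled vehicle. The groups did not overlap, but the library labelled fibroblasts deleted lay close to the library labelled fibroblasts vehicle. Podn fell by 1.14 ± 0.30 on the log2 scale (SE, edgeR adjusted p = 0.00728). The call was lost without the pair labelled lymphoma (log2 fold change -0.91, adjusted p = 0.0517), with DESeq2 (0.0817) and with limma on log2(TPM + 1) (-0.16, 0.0648). Podn overlaps Scp2 on the same strand, and Scp2 also fell, by 0.36 on the log2 scale. Aspn and Podn reached the count minimum in all 3 libraries labelled vehicle but not in all 3 labelled deleted, so they entered the test through the group in which they were high.

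Counting the members by their separate libraries, every library labelled deleted was below every library labelled vehicle for 6 members, which were Dcn, Aspn, Omd, Ogn, Podn and Lum. Lum was not among the 7 tested members, so the 6 and the share over tested genes do not cover like sets. Among all tested genes, every library labelled deleted was below every one labelled vehicle for 27.8%, and the opposite held for 27.7%. The median log2 fold change of the 7 tested members was -1.14, which is the value of Podn, beside 0.02 over all tested genes. In the alternatives the Podn value ran from -1.61 to -0.16. Lum, Fmod and Kera do not enter the median of the members, and Aspn and Podn entered it only through the libraries labelled vehicle. Coding sequences of Dcn, Bgn and Aspn were each present as 2 identical targets, between which kallisto divided the reads equally, so transcripts of these genes were not told apart. Outside Prelp and Podn, no stretch of 31 coding bases of a member occurred in another gene.

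The members lie in 3 family clusters and at 2 single sites. Aspn, Omd and Ogn occupy 80.1 kb of chromosome 13, or 120 kb with their relative Ecm2. All 3 lie within Cenpp, a gene for a centromere protein that runs on the opposite strand over chr13:49464023-49652785. Cenpp fell by 0.66 ± 0.07 on the log2 scale (SE, edgeR adjusted p = 2.04e-05), at 11.8 CPM labelled deleted against 18.5 CPM labelled vehicle. The library kit marks strand, but whether the authors' counting used it is not given in the sources used here. No stretch of 31 coding bases is shared by Cenpp and a member. Ecm2, a related matrix protein, had a log2 fold change of -0.50 ± 0.26 (adjusted p = 0.124) at 0.570 CPM labelled deleted and 0.811 CPM labelled vehicle. Nol8, Iars and Ippk, which flank the cluster and encode a nucleolar protein, a tRNA synthetase and an inositol phosphate kinase, rose by 0.55, 0.50 and 0.22 on the log2 scale; the call of Ippk was lost in 5 of 11 alternatives, among them without the pair labelled lymphoma (adjusted p = 0.0726) or sarcoma (0.116). Bicd2 had a log2 fold change of -0.01 and the small nucleolar RNA gene Gm25394 one of -0.02, both not past the threshold.

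**Figure D3:**
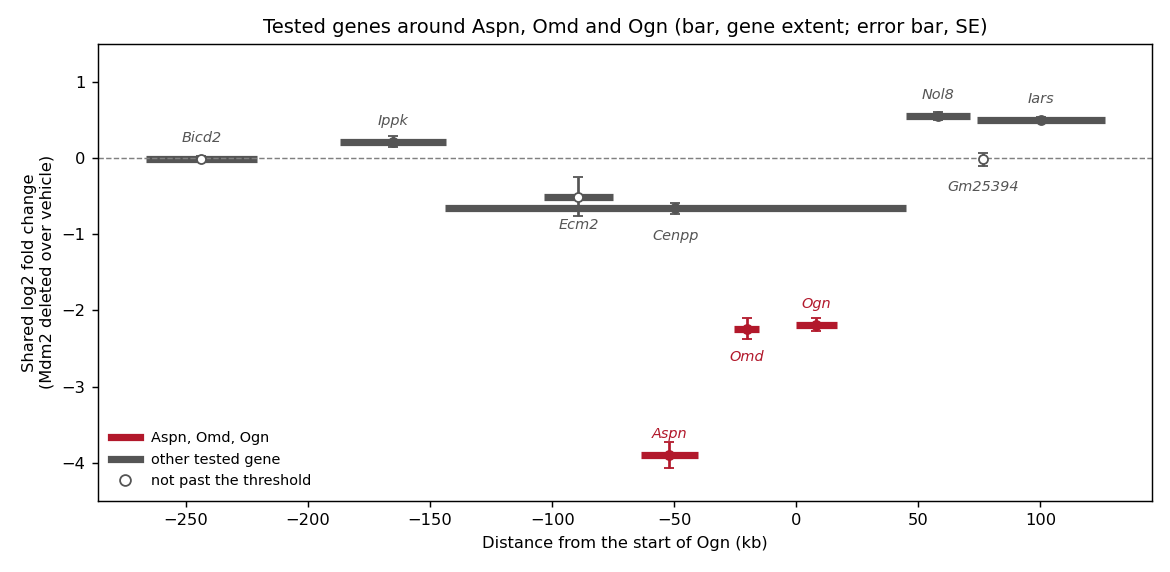
Shared log2 fold change, Mdm2 deleted over vehicle (y axis), of the tested genes around Aspn, Omd and Ogn against distance from the start of Ogn in kb (x axis); horizontal bars span each gene, error bars are the SE over 3 pairs and open symbols did not pass the threshold. The 3 proteoglycan genes lie between -3.90 and -2.19, below their neighbours, which lie between -0.66 and 0.55.

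Dcn, Lum and Kera lie with Epyc within 203 kb of chromosome 10, and there Dcn alone was abundant enough to be tested. Fmod and Prelp lie with Optc within 151 kb of chromosome 1. Over all 10 members, 53 other genes lie within 200 kb, of which 26 were tested. Of these, 7 passed as higher (Slc6a8, Zfp275, Dusp9, Ippk, Nol8, Iars and Slc1a7), 8 as lower (Optc, Btg2, Cenpp, Atp2b4, Echdc2, Scp2, Cpt2 and 0610037L13Rik) and 11 did not pass (Pnck, Bcap31, Haus7, Gm28441, Ecm2, Gm25394, Bicd2, Magoh, Lrp8, Zyg11b and Lrp8os2). Over all tested genes 25.0% passed as higher and 24.6% as lower. Without the pair labelled fibroblasts, Zfp275 and Btg2 no longer passed (edgeR adjusted p = 0.557 and 0.0633). Slc6a8, Ippk, Optc, Atp2b4, Echdc2 and 0610037L13Rik also lost their calls in some alternatives. The log2 fold change of Atp2b4 was -0.48 in the main fit and -0.08 in both limma fits (limma adjusted p = 0.671 and 0.666). Dusp9, Nol8, Iars, Slc1a7, Cenpp, Scp2 and Cpt2 kept theirs in all 11. The median log2 fold change of the 26 tested neighbouring genes was -0.0024, beside 0.02 over all tested genes.

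Further genes of the family and of its pathway were taken as 9 lists of 126 genes, described by counts and medians beside the 24.6% lower and 25.0% higher over all tested genes. Of 8 other family genes, 5 were tested, 2 fell and 0 rose, with a median log2 fold change of -0.50. Podnl1, the closest relative of podocan, fell by 0.53 ± 0.08 on the log2 scale (SE, edgeR adjusted p = 0.000134), at 11.8 ± 0.917 CPM labelled deleted and 17.02 ± 0.882 CPM labelled vehicle (SD, n = 3 each). Optc, which encodes opticin of the eye, fell by 0.68 ± 0.23 (SE, edgeR adjusted p = 0.0304) on 0.744 CPM labelled deleted and 1.19 CPM labelled vehicle; Optc is below the level of the naming rule and was added after its values were seen. The Optc call was lost in 5 of 11 alternatives, which were DESeq2 (adjusted p = 0.287), both limma fits on log2 TPM (0.0967 and 0.1005) and leaving out the pair labelled fibroblasts (0.103) or sarcoma (0.147), while Podnl1 kept its call in all 11. Ecm2, Tsku and Chadl did not pass the threshold, Chad had 0 counts in all libraries, and Epyc and Nyx were not tested.

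Fibrillar collagens and the collagens associated with them, the partners that the members bind, mostly fell as well. Of 13 genes, all tested, 10 fell and 1 rose, with a median log2 fold change of -0.72. In both limma fits 9 fell and 1 rose, the call of Col6a3 being lost (adjusted p = 0.199 and 0.201). Col11a1, which helps to start fibrils, averaged 99.9 ± 2.53 CPM in the libraries labelled deleted and 254 ± 12.9 CPM in those labelled vehicle (SD, n = 3 each), and fell by 1.35 ± 0.05 on the log2 scale (SE, edgeR adjusted p = 9.08e-10). Col3a1, a main chain of skin collagen, averaged 2159 ± 7.55 CPM labelled deleted and 5417 ± 200 CPM labelled vehicle, and fell by 1.33 ± 0.05 (SE, edgeR adjusted p = 6.60e-10). Col2a1, the cartilage collagen, was the 1 that rose, by 2.47 ± 0.24 (SE), at 2.12 CPM labelled deleted against 0.371 CPM labelled vehicle; it too is below the level of the naming rule and was added after its values were seen.

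**Figure D4:**
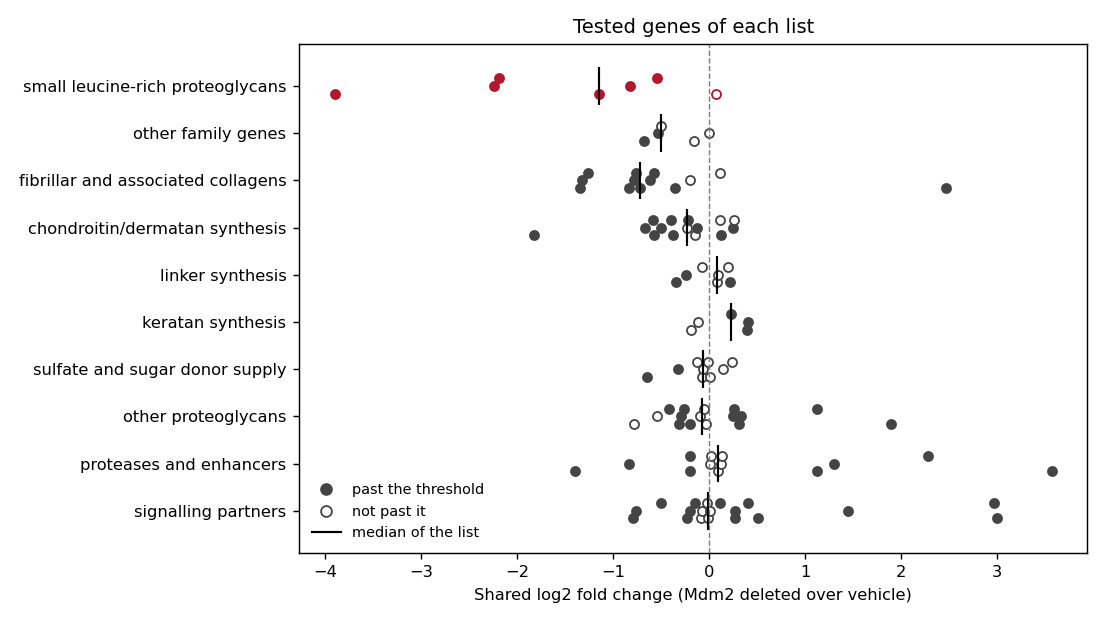
Shared log2 fold change (x axis, Mdm2 deleted over vehicle) of each tested gene of the members and of the 9 related lists (rows); filled symbols passed the edgeR threshold and vertical bars mark the median of a list. The median of the members, -1.14, is the value of Podn, which entered the test only through the libraries labelled vehicle. The collagens have a median of -0.72. The lists for linker, keratan sulfate, proteases and signalling have medians between -0.01 and 0.23.

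The enzymes that build the sugar chains of the members moved in both directions. The linker that joins a chain to its protein is made by 7 genes in the list, all tested, of which 1 rose and 2 fell (median log2 fold change 0.09). Xylt1 and Xylt2 both encode the xylosyltransferase that starts the linker. Xylt1 rose by 0.21 ± 0.06 on the log2 scale (SE, edgeR adjusted p = 0.00897), at 35.8 CPM labelled deleted and 30.9 CPM labelled vehicle. Xylt2 fell by 0.35 ± 0.05 (SE, edgeR adjusted p = 0.000214), at 23.3 CPM labelled deleted and 29.6 CPM labelled vehicle. Pxylp1, a phosphatase that acts on the linker xylose, fell by 0.24. The rise of Xylt1 was lost with DESeq2 (adjusted p = 0.0701), with both limma fits (0.118 and 0.115) and without the pair labelled fibroblasts (log2 fold change 0.14, adjusted p = 0.0885), and the fall of Pxylp1 with DESeq2 (0.0758), both limma fits (0.907 and 0.904) and without the pair labelled sarcoma (0.0554). The fall of Xylt2 was lost with limma on log2(TPM + 1) alone (0.0568), so the opposite calls of Xylt1 and Xylt2 depended on the setting.

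Of 16 genes for chondroitin and dermatan sulfate, 15 were tested, 9 fell and 2 rose, with a median log2 fold change of -0.23. In both limma fits 7 fell and 0 rose. Dsel and Dse encode epimerases that turn chondroitin into dermatan sulfate. Dsel fell by 0.67 ± 0.06 on the log2 scale (SE, edgeR adjusted p = 2.55e-06), at 16.9 CPM labelled deleted and 26.9 CPM labelled vehicle, whereas Dse rose by 0.13 ± 0.04 (SE, edgeR adjusted p = 0.0264), at 92.6 CPM labelled deleted and 84.7 CPM labelled vehicle. Csgalnact1, which adds the first galactosamine of the chain, fell by 0.58, and Chpf, a subunit of the polymerase, rose by 0.25. The rise of Dse was lost in 6 of 11 alternatives at adjusted p-values of 0.125 to 0.276, among them leaving out the pair labelled fibroblasts (0.125) or lymphoma (0.208), and that of Chpf in both limma fits (0.168 and 0.161). Dsel and Csgalnact1 kept their calls in all 11. Of 8 keratan sulfate genes, 5 were tested, 3 rose and 0 fell, with a median of 0.23. Those that rose were B3gnt2, by 0.41, Chst2, by 0.40, and B4galt1, by 0.23, which encode 2 sugar transferases and a sulfotransferase. B4galt1 is outside the naming rule and was added after its values were seen; its call was lost with DESeq2 and in both limma fits (adjusted p = 0.0520 to 0.0916).

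Of 9 genes that supply sulfate or sugar donors, all tested, 2 fell and 0 rose (median -0.06). Papss1, which makes the sulfate donor, fell by 0.64 ± 0.05 on the log2 scale (SE, edgeR adjusted p = 4.41e-07), at 161 CPM labelled deleted against 251 CPM labelled vehicle. Slc35b2, which carries that donor into the Golgi, fell by 0.33, a call lost in both limma fits (adjusted p = 0.0657 and 0.0630). Among 26 other proteoglycan genes, 16 were tested, 6 rose and 5 fell (median -0.07), but 4 and 1 in both limma fits. Agrn, the heparan sulfate proteoglycan agrin, averaged 141 ± 5.74 CPM labelled deleted and 37.8 ± 1.45 CPM labelled vehicle (SD, n = 3 each), and rose by 1.90. Sdc3, a membrane proteoglycan, rose by 1.13. Tgfbr3 (betaglycan) fell by 0.41 and Vcan (versican), a large chondroitin sulfate proteoglycan, by 0.31; the call of Vcan was lost in both limma fits (adjusted p = 0.0586 and 0.0571), and those of Agrn, Sdc3 and Tgfbr3 were kept in all 11 alternatives.

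Of 23 growth factors and receptors that small leucine-rich proteoglycans are known to bind or to act through, 19 were tested, 8 rose and 6 fell (median -0.01), but 5 and 3 in both limma fits. Tlr2, a receptor for released biglycan, averaged 32.8 ± 1.75 CPM labelled deleted and 4.18 ± 0.122 CPM labelled vehicle (SD, n = 3 each), and rose by 2.97 ± 0.07 on the log2 scale (SE, edgeR adjusted p = 1.74e-11). Tlr4, the other such receptor, named for the comparison after its values were seen, had 50.8 CPM labelled deleted and 50.2 CPM labelled vehicle, with a log2 fold change of 0.01 ± 0.05 (SE, edgeR adjusted p = 0.846). Bmp2 rose by 1.45, while Bmp4, a factor of the same family that biglycan binds, fell by 0.80 and Tgfb3 by 0.76. Of 16 proteases and enhancers that process the members or their collagens, 13 were tested, 4 rose and 4 fell (median 0.09), but 4 and 2 in both limma fits. The collagenase Mmp13 rose by 3.57 ± 0.12 (SE), at 11.7 CPM labelled deleted and 0.989 CPM labelled vehicle. Mmp3 (stromelysin), which cuts decorin among other substrates, rose by 2.28. The metalloproteases Adamts1 and Adamts5 fell by 1.40 and 0.83.

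Markers of cell types that could hold these RNAs were counted in the same fit. The 6 fibroblast markers that fell were Col1a1, Col1a2, Pdgfra, Pdgfrb, Thy1 and Vim, of which Col1a1 and Col1a2 also stand in the collagen list. The call of Pdgfrb was lost in both limma fits (adjusted p = 0.154 and 0.153), and those of Col1a1, Col1a2, Pdgfra, Thy1 and Vim were kept in all 11 alternatives. Myeloid markers summed to 7.18 to 9.25 CPM labelled deleted and 4.66 to 5.26 CPM labelled vehicle, with 3 of 6 tested and all 3 higher. The call of Csf1r was lost with DESeq2 (adjusted p = 0.144) and in both limma fits (0.180 and 0.0657). Endothelial markers summed to 1.70 to 2.24 CPM labelled deleted and 0.574 to 0.717 CPM labelled vehicle, with 2 of 5 tested and both higher. The call of Vwf was lost with DESeq2 (adjusted p = 0.123) and with limma on log2(TPM + 1) (0.112). Epithelial markers summed to 23.7 to 25.8 CPM labelled deleted and 9.05 to 10.1 CPM labelled vehicle. Krt18 alone averaged 21.7 CPM labelled deleted and 8.71 CPM labelled vehicle. Of 6, 3 were tested and 2, Krt8 and Krt18, were higher. Epcam did not pass, with 38 counts labelled deleted and 46 labelled vehicle, a pooled ratio of 0.944 (exact counting interval 0.598 to 1.48). Cdh1 and Krt14, not tested, had 9 and 3 counts labelled deleted and 1 and 0 labelled vehicle. Krt5 had 0 counts in all libraries. Adipocyte markers summed to 11.3 to 12.1 CPM labelled deleted and 13.0 to 14.1 CPM labelled vehicle. Of 5, 3 were tested and 2, Pparg and Lpl, were lower. Both calls were lost with DESeq2 (adjusted p = 0.0759 and 0.110).

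For the connective tissues in which osteomodulin, asporin and fibromodulin are best known, the marker levels were low. Tendon markers summed to 4.85 to 5.77 CPM labelled deleted and 6.18 to 7.25 CPM labelled vehicle; of the 2 tested, Scx fell by 0.76 and Mkx rose by 0.71 on the log2 scale, the call of Mkx being lost with DESeq2 (adjusted p = 0.103). Cartilage markers summed to 22.2 to 23.1 CPM labelled deleted and 16.7 to 18.6 CPM labelled vehicle. Of 6, the 2 tested, Sox9 and Col2a1, were higher, and Hapln1 had 0 counts in all libraries. The call of Sox9 was lost with DESeq2 and in the limma fits (adjusted p = 0.0510 to 0.0884). Comp, not tested, went the other way, with 16 counts labelled deleted and 43 labelled vehicle. Its ratio of CPM over the pooled counts was 0.425 (exact counting interval 0.224 to 0.771). Bone markers summed to 13.1 to 15.7 CPM labelled deleted and 11.2 to 12.8 CPM labelled vehicle, with Alpl alone higher of 3 tested. Sp7, not tested, had 6 counts labelled deleted and 26 labelled vehicle, a pooled ratio of 0.264 (exact counting interval 0.0888 to 0.655). Smooth muscle markers summed to 120 to 129 CPM labelled deleted and 121 to 142 CPM labelled vehicle, and none of the 3 tested passed. The part of any of these cell types in the members' values was not tested.

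Genes whose ratios in the 3 pairs lay nearest to those of a member were sought among the 10857 genes that averaged 5 CPM or more, by the mean absolute difference of log2 ratios of CPM + 0.5. Nearest to Aspn, the member lowered most, were Dkk2, a secreted Wnt regulator (mean difference 0.53, log2 fold change -2.36), Agtr2, an angiotensin receptor (0.70, -4.11), and Cthrc1, a secreted protein of collagen-producing cells (0.73, -2.21). The added 0.5 exceeds the mean Aspn level of 0.407 CPM in the libraries labelled deleted and draws its ratios toward equality, so these distances depend on it. The fitted log2 fold change of Aspn was -3.90 ± 0.17 (SE), beside which that of Agtr2 is the nearest of the 3. Nearest to Bgn, the most abundant member, were the noncoding Gm26768, Tom1l2, a gene for a trafficking protein, and the antisense Gm26947, at mean differences of 0.0070, 0.010 and 0.014. All 3 had log2 fold changes of 0.07 to 0.09. The likeness is over 3 pairs that share no library.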

How the data were processed

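RNA of 6 mouse libraries was sequenced with a stranded total RNA kit after removal of ribosomal RNA, per the labels' protocols. The authors' deposited files give estimated counts and TPM per transcript made with kallisto 0.43.0; the submitters' processing notes name it and the build GRCm38. The transcript set and strand setting are not given in the sources used here. Targets (76055) were joined to GENCODE M21 (GRCm38) by identifier. The 75049 that matched were summed per gene, and the 1006 that did not held 0.393% to 0.410% of a library's estimated counts. Of 51165 protein-coding targets, 94.1% had the coding length only, so reads in untranslated regions did not count there. Library totals were 26243064 to 37517726 estimated counts.

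Summed counts were rounded and tested with edgeR 4.0.16 in R 4.3.3 (TMM, filterByExpr with a minimum of 10 counts, two-sided quasi-likelihood test, pair as a block, 2 residual and 9.23 prior degrees of freedom). The SE is the absolute log2 fold change over the square root of F. The pairing comes from the cell type labels; deviations from group means correlated at 0.0324, 0.139 and 0.141 within the pairs. With 1 library per group in a pair, pair ratios have 95% Clopper-Pearson intervals and no test; intervals and the floor of 3 counts cover counting error only. Alternatives were DESeq2 1.42.0, limma 3.58.1 on log2 TPM with 1 or 0.1 added, other scalings, no filter, coding genes only, no block and leaving out each pair. Tables and figures were made with Python 3.11.15, pandas 2.3.3, numpy 2.4.6, scipy 1.17.1 and matplotlib 3.10.9, and the fit was tested on simulated data. The members and the gene lists were chosen with earlier results of these data known, and are no independent evidence of a direction. Besides the members and Mdm2, genes were named by rule: per list up to the 2 highest and 2 lowest past the threshold with a mean of at least 5 CPM and the same sign in all pairs, the 3 genes most like Bgn and Aspn, and the tested genes within 200 kb of a member. Further genes of the lists were named outside this rule, after their values were seen. Among the markers these include Csf1r, Vwf, Krt8, Epcam, Cdh1, Krt14, Lpl, Alpl, Scx, Mkx, Comp and Sp7.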

Additional observations from a re-analysis of the deposited data

How the results depend on the processing

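Dcn, Ogn, Omd and Aspn stayed past the threshold as lower, and Bgn stayed short of it, in 11 of 11 alternatives. Prelp kept its call in 6 of 11 and Podn in 8 of 11. No member past the threshold changed direction; the log2 ratio of Fmod in the pair labelled sarcoma, on 4 counts labelled deleted and 6 labelled vehicle, was -0.03 in CPM and 0.41 in TPM. The number of members lower was 6, and 4 to 7 in the alternatives, with 0 higher in each; at an unadjusted p under 0.05 edgeR also had 0 higher, as did DESeq2 and limma at the adjusted threshold. Without the replicate block the counts were 5 members lower, 3742 of all genes higher and 3772 lower, and 25 related genes higher and 40 lower. Leaving out each pair in turn gave 5 to 6 members lower, 3256 to 3540 of all genes higher and 3185 to 3949 lower, and 22 to 24 related genes higher and 38 to 41 lower. Over all genes, 3981 higher and 3920 lower became 2541 and 2488 with DESeq2, 2352 and 1552 with limma on log2(TPM + 1), and 2401 and 1589 with 0.1 added. Which direction held more calls thus changed with the setting. In both limma fits 60.2% of the calls were higher, against 50.4% in the edgeR fit. For the related lists, 25 higher and 40 lower became 16 and 24 with 1 added and 16 and 25 with 0.1 added. Of 96 related, marker and neighbouring genes past the threshold, 57 kept their call in all alternatives, 36 lost it in a limma fit and 12 on leaving out a pair. The cause of these shifts was not tested. In TPM, the log2 ratio in the pair labelled lymphoma was -0.66 for Dcn and 0.18 for Bgn, against -0.80 and 0.04 in CPM. Depth limits Lum, Fmod, Kera, Podn and Prelp, with 0 to 104 counts per library. It also limits the size of the Aspn fall, with 10, 11 and 13 counts in the libraries labelled deleted.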
